A study of Mus musculus with 2 samples.

Results

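The regions described here are the 1000 distal DNase I hypersensitive regions with the highest signal in the left cerebral cortex of young mice. They were taken from 50856 peaks found in both libraries, of which 31285 lay on the 19 autosomes with their midpoint more than 1 kb from every transcription start site of the GENCODE annotation. These were ranked by the mean of the signal in both libraries, and the 1000 highest were kept; the other 30285 are called the other distal peaks below. The tissue came from 2 female B6CASTF1/J mice of 10 days, a first-generation cross of C57BL/6J and CAST/EiJ, with no treatment and no second group named in the labels. Each animal gave 1 library, and reads were not assigned to the parental alleles. The labels call the libraries biological replicates, number the animals separately and give both the same donor identifier.

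DNase I cuts chromatin where nucleosomes are absent or displaced, so a peak of cuts marks an accessible element. Accessible regions away from gene starts include enhancers, which bind tissue-specific factors, insulators, which bind the zinc-finger protein CTCF, and promoters that an annotation does not list. A protein bound to its site shields a few bases inside such a region, and this protected stretch is called a footprint. The distal label rests on the annotation alone, and its fit with a second annotation is described further on.

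CTCF holds chromatin loops together with cohesin and has a long, well-defined recognition sequence. A match to its consensus, searched on both strands, was present in 150 of the 1000 regions. Strong regions with a match under a footprint in both libraries are shown as examples of the sequence found; the search itself fixed how far the core could vary. A region near Diaph1, ranked between regions 108 and 144, is not displayed. Each line runs 5′ to 3′ on the strand of the match, with 25 bases on each side and the match in capitals, read from the GRCm38.p6 reference.
Region 47 near Stard10, chr7:101310765-101310826, plus strand: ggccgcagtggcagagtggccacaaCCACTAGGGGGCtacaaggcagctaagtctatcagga
Region 59 near Gm44738, chr7:73618490-73618551, minus strand: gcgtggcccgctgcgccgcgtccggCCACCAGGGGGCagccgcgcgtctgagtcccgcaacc
Region 78 in an intron of Nuak1, chr10:84438179-84438240, minus strand: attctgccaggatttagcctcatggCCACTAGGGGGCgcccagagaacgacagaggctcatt
Region 108 in an intron of Camta1, chr4:151141696-151141757, minus strand: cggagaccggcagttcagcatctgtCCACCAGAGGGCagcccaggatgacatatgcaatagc
Region 144 near Gm23423, chr4:9135943-9136004, plus strand: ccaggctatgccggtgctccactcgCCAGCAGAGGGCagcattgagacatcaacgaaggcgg
The numbers are ranks by mean signal, and the gene after the word near is that of the nearest GENCODE start. For region 144 that start is 74022 bp away, and a RefSeq start is 5915 bp away. Over all 157 matches in the 1000 regions, the commonest core was CCAGCAGAGGGC, with 20 matches, followed by CCACTAGGTGGC with 17.

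Other regions are shown whole, as called in replicate 1, because each is the strongest that carries a given motif under a footprint in both libraries, among regions of at most 300 bp outside untranslated regions and without copies elsewhere. All are written on the plus strand with the matches in capitals. Region 9 lies between genes, 2820 bp from the nearest start of Tle2, a corepressor of the Groucho family. It holds a cyclic AMP response element, TGACGTCA, the site of CREB-family factors, and further along the letters CTGATTGG, which hold an inverted CCAAT box, the site of NF-Y.
Region 9, chr10:81571641-81571840: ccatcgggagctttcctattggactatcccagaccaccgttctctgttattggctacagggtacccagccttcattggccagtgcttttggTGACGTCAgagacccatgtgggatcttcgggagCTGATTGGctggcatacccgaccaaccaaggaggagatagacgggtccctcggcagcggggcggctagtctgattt
Region 10 overlaps an exon of the noncoding gene Gm14486. It holds an RFX motif, GTTGCCATG, and an NRF1 motif, whose letters on this strand are CGCATGCGC.
Region 10, chr2:30658501-30658720: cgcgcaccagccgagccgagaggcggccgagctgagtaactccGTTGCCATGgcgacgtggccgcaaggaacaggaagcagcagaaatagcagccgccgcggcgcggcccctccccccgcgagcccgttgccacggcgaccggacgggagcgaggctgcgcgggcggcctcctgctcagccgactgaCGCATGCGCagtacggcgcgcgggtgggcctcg
Region 15 lies 2543 bp from a start of Kcnn1, a calcium-activated potassium channel, and 110 bp from a RefSeq start. It holds an SP-KLF motif, CCCCGCCCC on this strand, and an NRF1 site that matches on both strands.
Region 15, chr8:70865661-70865940: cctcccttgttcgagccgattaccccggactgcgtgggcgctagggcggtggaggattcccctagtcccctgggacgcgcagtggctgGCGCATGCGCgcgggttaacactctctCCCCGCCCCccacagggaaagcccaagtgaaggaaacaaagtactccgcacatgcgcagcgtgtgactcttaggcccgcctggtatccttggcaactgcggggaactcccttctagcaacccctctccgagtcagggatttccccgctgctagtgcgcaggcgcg
Region 87 lies in an intron, 6579 bp from the nearest start of Zfp13, and holds an ETS motif, ACTTCCGG on this strand.
Region 87, chr17:23592741-23592880: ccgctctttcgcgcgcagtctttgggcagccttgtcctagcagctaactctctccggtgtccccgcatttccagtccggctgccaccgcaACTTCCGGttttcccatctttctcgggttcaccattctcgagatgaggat

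The regions were chosen by this signal, so it is described here without a test. In replicate 1 it ran from 1.56 to 24.7 with a median of 2.72, and in replicate 2 from 2.44 to 27.3 with a median of 3.80. Among the other distal peaks the medians were 0.796 and 0.970. The signal has no stated unit; values were spaced in steps of 0.00692 in replicate 1 and 0.00758 in replicate 2. At the threshold, the last 3 regions kept had mean signals of 2.604, 2.6038 and 2.6028, and the first 3 left out had 2.6014, 2.6007 and 2.5999. The last of these lies 3711 bp from a start of Gad1, which makes GABA. The ranks thus run smoothly through the threshold. Strong signal was commoner at gene starts: of 18305 autosomal shared peaks within 1 kb of a start, 6506 (35.5%) reached the lowest mean signal of the 1000.

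**Figure D1:**
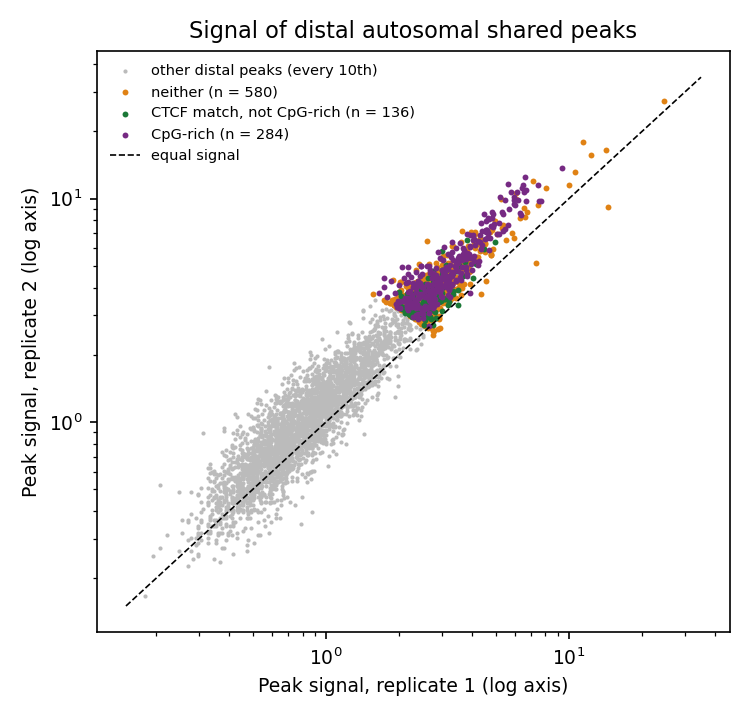
Peak signal in replicate 1 (x axis) against replicate 2 (y axis), both on log axes, for the 1000 regions coloured by sequence class and for every 10th of the other distal peaks in grey. Most coloured points lie above the dashed line of equal signal: replicate 2 was higher at 985 regions (98.5%), beside 79.5% of the other distal peaks.

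Both libraries chose largely the same regions. Ranked on replicate 1 alone, 863 of the 1000 would have been kept, on replicate 2 alone 901, and 771 stood among the first 1000 of each library. Signal in replicate 2 exceeded that in replicate 1 at 985 regions (98.5%), beside 84.9% of all shared peaks. The shares were 79.5% at the other distal peaks and 93.3% at the peaks near starts. Over the 1000 regions the median log2 ratio was 0.50 (SD over regions 0.24), or 0.36 when counted in steps. At the other distal peaks the median was 0.28, and at the peaks near starts 0.50. Replicate 2 was higher by over 2-fold at 23 regions (2.3%), beside 2.61% of all shared peaks and 1.75% of the other distal peaks. Replicate 1 was higher by over 2-fold at 0 regions, beside 0.0472% of all shared peaks and 0.0594% of the other distal peaks. The regions were selected on the mean signal, so these shares show no more than how the libraries relate. Among the 1000, 8 regions overlapped another of them, and 8 shared their replicate 2 peak, and so its value, with another.

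The 1000 regions fell into 3 sequence classes that were distinguished after the values were seen. A region was called CpG-rich where its CpG count was at least 0.6 of that expected from its base composition and its GC content at least 50%. There were 284 such regions (28.4%, 95% Wilson interval 25.7 to 31.3), beside 5.18% of the other distal peaks and 67.5% of the peaks at starts. Another 136 regions (13.6%, 11.6 to 15.9) held a CTCF match without being CpG-rich, beside 10.2%. The remaining 580 (58.0%, 54.9 to 61.0) were neither, beside 84.6%; 14 regions were CpG-rich and held a CTCF match. With minimums of 0.75 and 55%, 15.5% of the 1000 were CpG-rich. Intervals cover counting error only, since regions of the same libraries are not replicates.

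These classes changed places along the ranking. Of the 100 strongest regions, 62 were CpG-rich (Wilson interval 52.2 to 70.9) and 3 held a CTCF match (1.03 to 8.45). In ranks 501 to 1000, 16.8% were CpG-rich (13.8 to 20.3) and 18.4% held a CTCF match (15.2 to 22). The share with a CTCF match was highest beyond the threshold. It was 22.5% in ranks 1001 to 2000 (20 to 25.2) and 20.3% in ranks 2001 to 5000 (18.9 to 21.7). These intervals overlapped each other and that of ranks 501 to 1000. From rank 5001 on the share dropped to 8.93%. The share of CpG-rich peaks kept dropping, to 14.0% in ranks 1001 to 2000 and 4.43% from rank 5001 on. CpG-rich sequence was thus most frequent in the 100 strongest distal regions. Shares with a CTCF match were highest from rank 1001 to 5000, with intervals that overlapped that of ranks 501 to 1000.

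**Figure D2:**
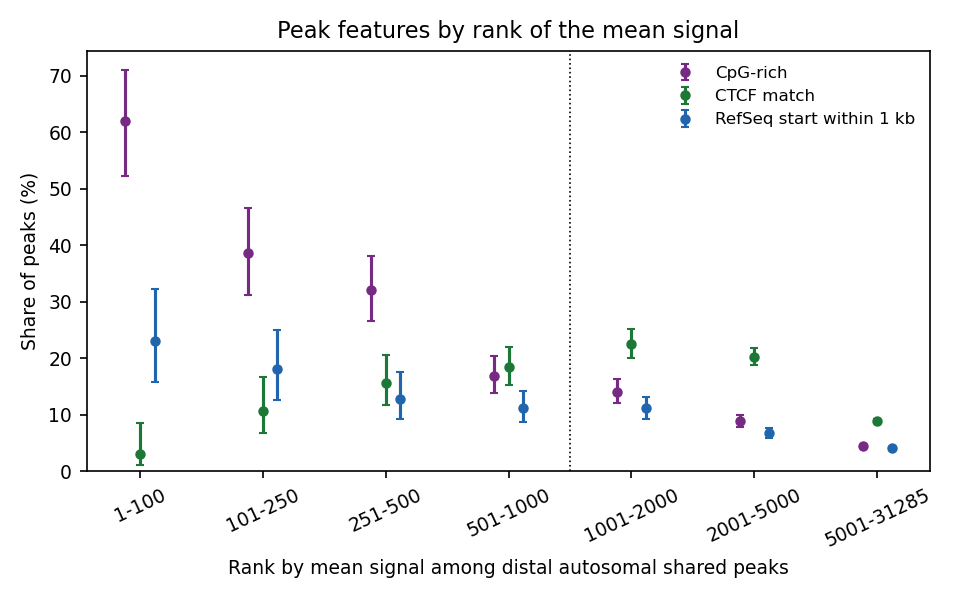
Share of peaks (y axis, percent) that were CpG-rich, held a CTCF match or had a RefSeq start within 1 kb, by rank of the mean signal among the 31285 distal peaks (x axis); points are shares and bars 95% Wilson intervals, and the dotted line marks rank 1000. CpG-rich peaks lead in ranks 1 to 100 at 62%, and CTCF matches reach 22.5% in ranks 1001 to 2000.

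The regions lay closer to start sites than other distal peaks, although the rule kept all of them more than 1 kb from a start. Their median distance to the nearest GENCODE start was 7367.5 bp (95% order-statistic interval 6511 to 8074), beside 14188 bp (13927 to 14472). Between 1 and 2 kb lay 167 of them (16.7%), beside 8.20%, and beyond 100 kb lay 13 (1.3%), beside 5.58%. Upstream and downstream of the nearest start were about equally frequent, with 49.3% upstream. The nearest start belonged to a protein-coding gene at 600 regions (60%, 56.9 to 63.0), beside 48.9%.

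By midpoint, 539 regions lay between genes (53.9%, 50.8 to 57.0), 372 in introns (37.2%, 34.3 to 40.2) and 89 in exons (8.9%, 7.29 to 10.8). The other distal peaks divided into 48.3%, 46.6% and 5.06%. Introns thus held a smaller share of the strongest regions, and exons and the space between genes a larger one. Of the CpG-rich regions, 64.8% lay between genes, 22.5% in introns and 12.7% in exons; CpG-rich peaks among the other distal peaks divided into 49.5%, 35.1% and 15.4%, so within this class the exon share was not the larger. Regions with a CTCF match that were not CpG-rich had 40.4% in introns, beside 43.9% of such other distal peaks, and regions of neither class 43.6%, beside 47.6%. Between genes these classes had 51.5% (43.1 to 59.7), beside 50.9%, and 49.1% (45.1 to 53.2), beside 48.0%. The larger share between genes was therefore clear in CpG-rich regions only. When starts of protein-coding transcripts alone defined distance, the exon share was 15.4%.

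A second annotation placed starts at some of these distal regions. RefSeq had a transcript start within 1 kb of the midpoint of 138 regions (13.8%, 11.8 to 16.1), beside 4.53% of the other distal peaks (4.30 to 4.77). With curated RefSeq transcripts alone these were 28 regions (2.8%), beside 0.535%. The share was 25.7% in CpG-rich regions (21.0 to 31.1), beside 15.9% of the CpG-rich other distal peaks (14.1 to 17.8). It was 4.41% in those with a CTCF match that were not CpG-rich (2.04 to 9.29), beside 3.10% (2.55 to 3.78), with overlapping intervals. In the rest it was 10.2% (7.97 to 12.9), beside 4.01% (3.77 to 4.26). Among the 100 strongest, 23 had a RefSeq start within 1 kb. Region 7, between genes on chr9:61370461-61370720 with signals of 9.33 and 13.7, lies 1036 bp from a GENCODE start of Gm10655 and closer still to a RefSeq start of Gm34157 (101 bp). With distance measured from protein-coding starts alone, 28.3% had a RefSeq start within 1 kb.

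The strongest regions were richer in G, C and CpG than the other distal peaks. Median GC content was 55.3% (55 to 55.7), beside 49.6% (49.5 to 49.7) and 62.7% at starts. The CpG count relative to expectation had a median of 0.452 (0.429 to 0.479), beside 0.251 and 0.762. No CpG at all was found in 13 regions (1.3%), beside 12.6% of the other distal peaks. Methylation of CpG usually accompanies closed chromatin, and unmethylated CpG-rich stretches are typical of promoters; methylation was not measured here. The regions were also wider, with a median of 220 bp beside 181 bp, so they offered more bases for any match.

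**Figure D3:**
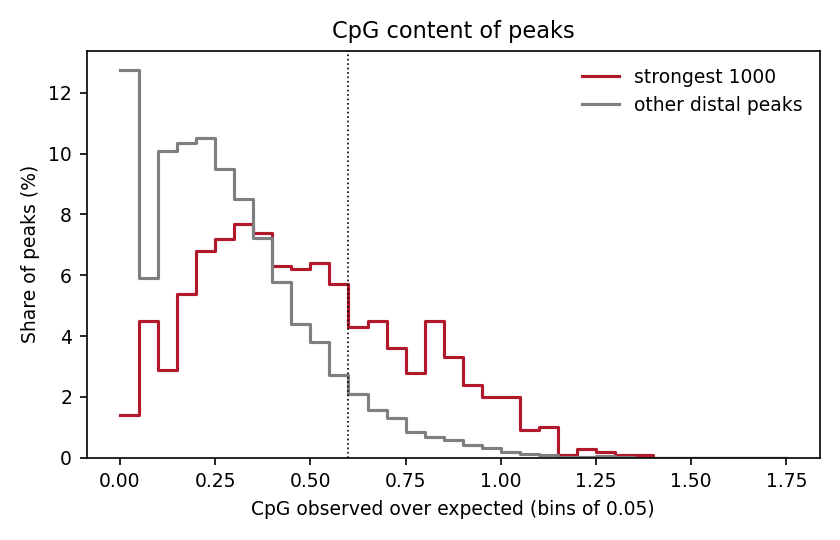
Share of peaks (y axis, percent) by the CpG count relative to that expected from base composition (x axis, bins of 0.05) for the 1000 regions and the other distal peaks; the dotted line marks 0.6. The medians are 0.452 and 0.251, and the red curve reaches well past 0.6.

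Accessible chromatin extended further around these regions. Within 1 kb of the midpoint, the positions whose cut rate passed a false discovery rate of 0.05 covered a median of 564 bp (replicate 1) or 593.5 bp (replicate 2). For the other distal peaks these were 318 and 336 bp, and for peaks at starts 861 and 900 bp. CpG-rich regions had 807.5 and 816.5 bp, close to the peaks at starts. Regions with a CTCF match that were not CpG-rich were narrow, at 399.5 and 413.5 bp, and the rest had 512.5 and 548 bp. This coverage comes from the same cuts as the signal, and its relation to depth was not tested.

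The sequences were searched on both strands for 23 motifs, and shares are given for a window of 200 bp centred on each midpoint, which removes the difference in width. The letters were TGAGTCA for AP-1, TGACGTCA for CRE, CAGATG and CAGCTG for E-boxes of neuronal basic helix-loop-helix factors, GTTGCCATG for RFX, ATGCAAAT for the POU octamer and ACAATGG for SOX. They were TAATTA for homeobox factors, GCGCATGCG for NRF1, GGGGCGGGG for SP-KLF, CCGGAAGT for ETS, AAGATGGCG for YY1, ACTACAATT for ZNF143, TCAGCACC for REST and GCGTGGGCG for EGR. Further, they were ACATTCCA for TEAD, TAGGTCA for ROR, AGGTGTGA for T-box and AGATAAG for GATA; CTCF, MEF2, NFI and HNF1 were searched by longer or gapped patterns. NRF1 is nearly a palindrome, so 1 site can give a match on each strand. A match describes letters and not binding.

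Motifs typical of CpG-rich promoters were several times commoner than in other distal peaks. CRE matches were in 2.9% of the windows, beside 0.357%, NRF1 in 2.3% beside 0.261%, and ETS in 2.2% beside 0.234%. SP-KLF matches were in 4.9%, beside 0.938%, and EGR in 1.0%, beside 0.139%. Over whole peaks, 41 of the 53 regions with an SP-KLF match, 24 of the 26 with NRF1 and 15 of the 23 with ETS were CpG-rich. For CRE these were 16 of 30 and for EGR 7 of 13. In regions of neither class, CRE matches over whole peaks were in 2.41%, beside 0.312% of the other distal peaks of that class. RFX, whose factors act at ciliary and neuronal genes, stood in 5.6% of the windows, beside 2.13%. Over whole peaks, RFX was most frequent in regions of neither class, at 48 of 580 (8.28%), beside 2.37% of the other distal peaks of that class.

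CTCF matches stood in 15.2% of the windows (13.1 to 17.6), beside 10.6% (10.3 to 11.0). With up to 1 mismatch over the whole peak, the share was 39% in the 1000 and 27.5% in the other distal peaks. Some motifs of neuronal and developmental factors were less frequent instead over the 1000 regions together. The E-box CAGATG was in 17.9% of the windows, beside 25.7%, and the homeobox motif in 1.8%, beside 4.57%. For AP-1 the shares were 3.6% and 4.95%, and for CAGCTG 17.1% and 19.3%, each pair with overlapping intervals. At least 1 of the 23 motifs was present in 61% of the windows of the 1000 regions and in 59.8% of those of the other distal peaks.

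**Figure D4:**
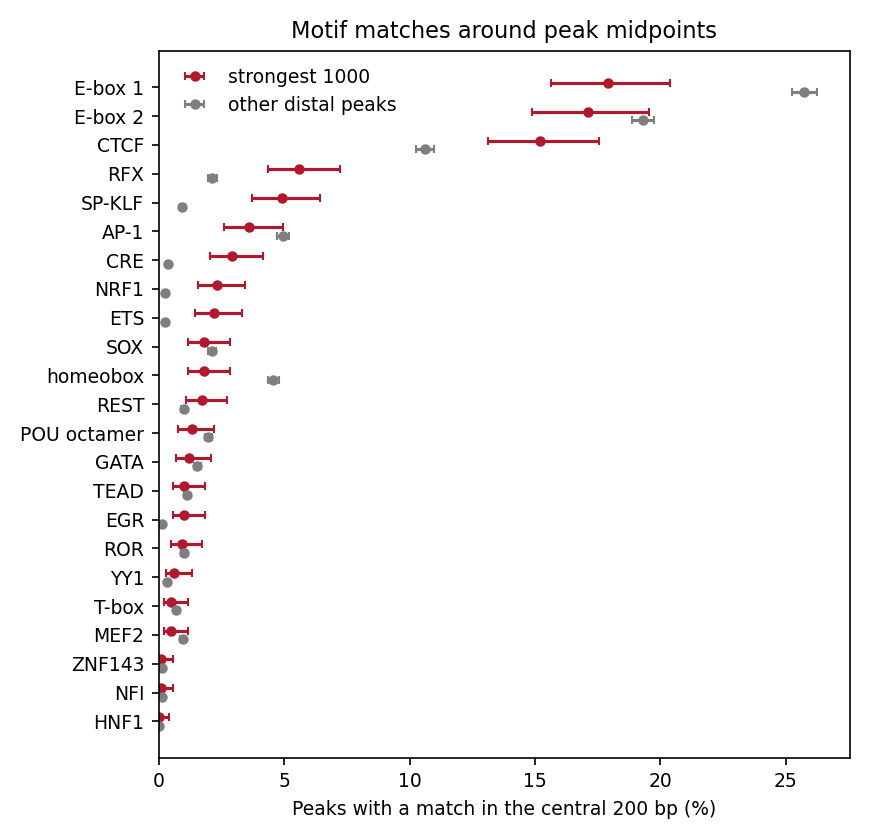
Share of windows of 200 bp (x axis, percent) with a match to each of 23 motifs (y axis) in the 1000 regions (red) and the other distal peaks (grey), with 95% Wilson intervals; E-box 1 is CAGATG and E-box 2 CAGCTG. Red points lie to the right of grey ones for CTCF, RFX, SP-KLF, CRE, NRF1, ETS and EGR, and to the left for E-box 1 and the homeobox motif.

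Among the 580 regions of neither class, words of 8 bases were ranked by their share relative to the other distal peaks of that class, a search made after the classes were seen. The leading word was CCAATCAG, with its reverse complement CTGATTGG, which contains the CCAAT box bound by the trimeric factor NF-Y. It was in 28 regions (4.83%, 3.36 to 6.89), beside 0.866% of the other distal peaks of that class (0.760 to 0.987). Over all 1000 regions 40 held it, with 49 matches, of which 23 (46.9%, 33.7 to 60.6) lay under a footprint in both libraries. In the other distal peaks this was 14.4%. Single bases also differed in coverage, at 21.4% of all bases in the 1000 and 7.49% in the other distal peaks. A match counts here with 1 overlapping base. Repeat-masked sequence held 0 of these 49 matches. Of the 40 regions, 13 had a RefSeq start within 1 kb. Region 9, printed above, is the strongest of its class, by the same limits on length and copies, with this word under a footprint in both libraries.

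Footprints were found in nearly every region. In both libraries 997 regions held at least 1 (99.7%, 99.1 to 99.9), beside 88.1% of the other distal peaks, and the median was 4 per region in each library, beside 2. More cuts allow more footprints to be called, and the part of depth in this difference was not tested. Of all bases in the 1000 regions, 21.4% lay under a footprint in both libraries, beside 7.49%.

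Matches to several motifs lay under footprints far more often than the average base. Of 157 CTCF matches, 155 (98.7%) overlapped a footprint in both libraries, beside 90.8% in the other distal peaks. For RFX it was 89.6% beside 57.1%, for CRE 87.1% beside 44.8%, and for SP-KLF 84.5% beside 43.4%. NRF1 matches were covered at 60.5% beside 47.9%, and ETS at 28% beside 18.5%. The E-box CAGATG was covered at 35.6% beside 19.2%, and AP-1 at 17.1%, below the 21.4% of all bases, beside 8.57%. A match counts here with 1 overlapping base, so long motifs are covered more easily than single bases.

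Footprint coverage around CTCF matches was highest over the match and lower, and unequal, on its far sides. Bases of the match were under a footprint in 98.6% of cases in replicate 1 and 97.2% in replicate 2. It averaged 78.3% and 80% over the 10 bases before the match and 87.8% and 82.6% over the 10 bases after it. The libraries differed in the latter: at position 19 from the match start, coverage was 81.5% in replicate 1 and 68.2% in replicate 2. In the stretch from 60 to 31 bases before the match this dropped to 10.1% and 9.58%. In the 30 bases from position 42 to 71 after the match start it was 22.5% and 24.1%. The peak midpoint lay a median of 6 bp downstream of the match (2 to 9), and 76 matches were on the plus strand and 81 on the minus strand. Among 124 neighbouring pairs of regions with a single match, 29 (23.4%, 16.8 to 31.6) pointed toward each other, 29 away from each other and 66 (53.2%, 44.5 to 61.8) the same way. Over all distal shared peaks the shares were 25.7%, 25.6% and 48.6%, within these intervals. Median distances in the pairs of the 1000 were 12734, 4014 and 6885 kb.

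**Figure D5:**
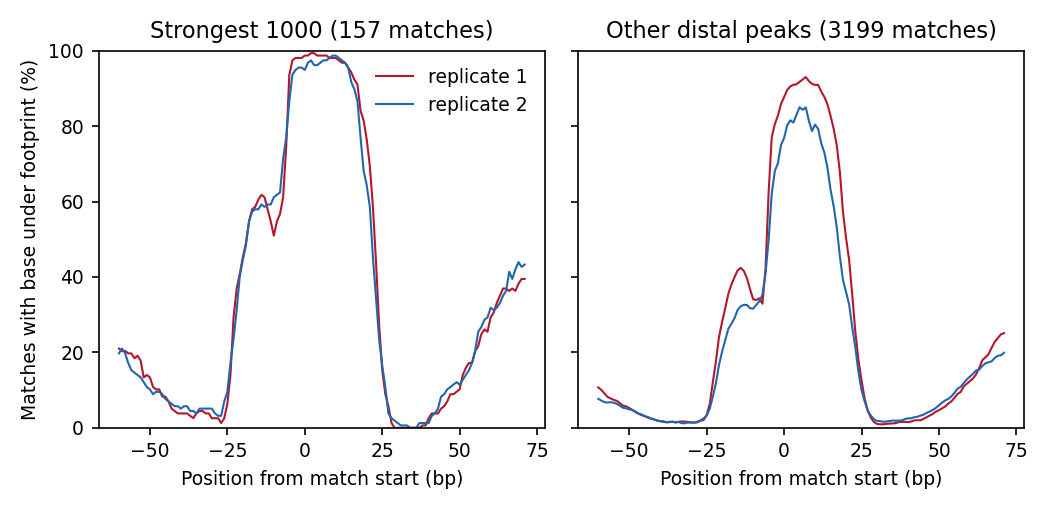
Share of CTCF matches (y axis, percent) whose base at each position from the match start (x axis, bp) lay under a footprint, in replicate 1 and replicate 2, for the 1000 regions (left) and the other distal peaks (right). Both panels show a plateau over the match, averaging 98.6% and 97.2% on the left and 91.0% and 81.4% on the right.

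The single strongest region lay at chr15:99735661-99736060, in an exon of Cers5, a ceramide synthase, with signals of 24.7 and 27.3. Its midpoint was in an untranslated region, 10243 bp from the nearest start, that of Cox14. The next lay at chr13:58177581-58177800 in an untranslated region of Ubqln1, which delivers proteins to the proteasome, with 14.2 and 16.5. Region 3, at chr9:123461901-123462140 in an untranslated region of Lars2, the mitochondrial leucyl-tRNA synthetase, had 11.4 and 17.9. None of these 3 was CpG-rich or held a CTCF match, and region 2 had a GC content of 39.1%. The strongest few thus differed from the strongest 100: of the first 10 regions, only regions 7 and 10 were CpG-rich.

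Several of the very strongest regions have relatives elsewhere in the reference genome, where reads cannot always be placed with certainty. A near-identical copy, at 95% identity over 90% of the region, was found for 17 of the 1000 (1.7%, 1.06 to 2.71), beside 0.726% of the other distal peaks. At 90% identity over 50% of the region there were 33 (3.3%, 2.36 to 4.60), beside 1.66%, and these included 5 of the first 10. Region 4, chr3:5860361-5860530, had 11 near-identical copies and signals of 12.4 and 15.7. Region 6, chr9:3002041-3002220, was wholly repeat-masked, had 107 copies and signals of 14.5 and 9.22. Region 8, in an intron of Il31ra, had 3 copies and signals of 10.0 and 11.6. Regions 3 and 5 had partial copies only, 7 and 3 of them. How reads with several places were treated is not given in the sources used here, and the part of copies in these signals was not tested.

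The libraries differed most at a few named regions. Region 6 had the widest ratio toward replicate 1, with a log2 ratio of -0.66. Region 60 in an intron of Aida had signals of 7.31 and 5.13, and region 232 on chromosome 10 had 4.35 and 3.73. Toward replicate 2 the widest was region 606 in an exon of 2310034G01Rik, with signals of 1.73 and 4.40 and a log2 ratio of 1.35; its midpoint is 7 bp from a RefSeq start. Region 161 in an intron of Clec11a had 2.59 and 6.46, the second value shared with an adjoining region, and region 935 near Lmbrd1 had 1.56 and 3.75. By class, the median log2 ratio was 0.59 in CpG-rich regions, 0.46 in those with a CTCF match and 0.47 in the rest.

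Some genes had several of the strongest regions nearest to their starts. The 1000 regions were assigned to 902 genes by nearest start, and 12 genes had 3 or more. Diaph1, an actin-nucleating formin, had 5. Kdm6b, a histone H3 lysine demethylase, had 4 within chr11:69411181-69419180, with mean signals from 3.5 to 4.76, at 2384 to 5326 bp from its start. Camta1, a calmodulin-binding transcription activator expressed in brain, had 4, with mean signals from 2.63 to 5.2, and 1 of them is printed above for its CTCF match. Ptma, Nr1d1, Igf1r, Bahcc1, Gm43907, Gm22660 and Peg3 had 3 each, and so did Zfp692 and Sdhaf1. Nr1d1 encodes the circadian repressor REV-ERB alpha, and its strongest region, in an intron, had signals of 5.45 and 9.91. Together with regions nearest to Msl1, these formed the longest run, 5 regions within 13.3 kb.

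Peg3, an imprinted zinc-finger gene expressed from the paternal allele, had its 3 regions in an intron at 1628 to 2718 bp from the start. Signals were 3.09 and 4.78 in region 249, 2.35 and 4.78 in region 354, and 2.03 and 3.74 in region 709. Regions 249 and 354 overlap and share their replicate 2 peak. All 3 hold the YY1 motif AAGATGGCG, with 4, 2 and 3 matches, although it occurs in only 8 of the 1000 regions. A match in the overlap of regions 249 and 354 counts for both, so these are not all separate regions. Of the 4 matches in region 249, 1 lay under a footprint in both libraries. Part of region 249 with 2 matches in capitals is shown on the plus strand because it carries the motif more than once.
Region 249, part, chr7:6728392-6728469: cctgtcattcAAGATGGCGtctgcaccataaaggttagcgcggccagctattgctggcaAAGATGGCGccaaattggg
Only the second of these matches was under a footprint in both libraries. The Peg3 regions and the YY1 motif were singled out after their values were seen.

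The regions were unevenly spread over chromosomes. Chromosome 11 had 104 (0.852 per Mb) and chromosome 7 had 91 (0.626 per Mb), while chromosome 16 had 23 (0.234 per Mb). Of the distal shared peaks on these chromosomes, 5.13%, 5.02% and 1.97% were among the 1000. Within 10 kb of another of the 1000 lay 135 regions, in 61 runs.

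Genes induced by neuronal activity had the most regions of the 10 gene lists counted. The nearest protein-coding start belonged to 1 of 12 activity-regulated genes at 10 regions (1.0%, 0.544 to 1.83), beside 0.0925% of the other distal peaks (0.0640 to 0.134), and 7 of the 12 genes had a region. They were Fos, Npas4 and Nr4a1 with 2 each, and Fosb, Egr3, Egr1 and Junb with 1 each. These encode immediate early transcription factors. The stronger Fos region, chr12:85455161-85455580, lay 18519 bp upstream of the start, with signals of 4.73 and 6.67. The stronger Npas4 region, chr19:5001821-5002060, lay 11625 bp upstream, with 4.12 and 6.23, and held an RFX match. Both Npas4 regions lay closer to starts of genes that are not protein-coding, at 1128 to 7444 bp. Of the 10 regions 7 were CpG-rich and 9 lay between genes, beside 28.4% and 53.9% of the 1000. Upstream of the coding start lay 8, while 49.3% of the 1000 lay upstream of the nearest start of any kind. Replicate 2 was higher at all 10, and at 98.5% of the 1000. The list was chosen with earlier results of these data known.

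Lists of cell types had few of the strongest regions, with shares within counting error of those of the other distal peaks. For each list below, the share of the other distal peaks lay inside the Wilson interval of the list's share. That interval was 0.0549 to 0.726 for the astrocyte list (0.2%) and 0.0177 to 0.564 for each list with 1 region (0.1%). The cortical excitatory list of 18 genes had 4 regions (0.4%, 0.156 to 1.02), beside 0.274% of the other distal peaks. They were 3 at Mef2c, a neuronal transcription factor, and 1 at Slc17a7, the vesicular glutamate transporter of cortical excitatory neurons, 1718 bp upstream with signals of 2.35 and 4.69. Of those at Mef2c, 1 lay in its intron, 2183 bp from the start, with 2.30 and 3.24. The other two, with 3.94 and 5.09 and with 3.44 and 4.32, lay 62293 and 92243 bp away and closer to starts of the noncoding gene C130071C03Rik, at 6200 to 6268 bp. The astrocyte list had 2, at Nfia with 4.33 and 5.95 and at Nfib with 2.40 and 4.27, beside 0.310%. Pan-neuronal genes had 1, in an intron near Dlg4, a postsynaptic scaffold, with 4.88 and 7.47, beside 0.158%. The oligodendrocyte lineage list had 1 at Mog, a myelin protein, with 3.74 and 5.15, beside 0.106%, and the endothelial and mural list 1 at Pdgfrb, beside 0.112%. The list of CTCF and cohesin genes had 1, in an intron near Ctcf itself, with a CTCF match and signals of 2.88 and 3.48, beside 0.0330%.

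No region was nearest to a cortical interneuron, microglia or other-brain-region gene; 0 of 1000 has a Wilson upper bound of 0.383%. The other distal peaks had 0.218%, 0.0363% and 0.102%, so these zeros are within counting error. As a check of the tissue, a peak in both libraries within 500 bp of a start was present for 13 of 14 pan-neuronal and 12 of 18 excitatory genes. It was present for 9 of 18 interneuron, 7 of 12 astrocyte, 5 of 12 oligodendrocyte lineage, 3 of 12 microglia and 3 of 12 endothelial and mural genes, and for 0 of 16 genes of other brain regions. In bulk tissue, a weaker peak in fewer cells and a weaker peak in every cell cannot be told apart.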

How the data were processed

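DNase-seq libraries came from the left cerebral cortex of 2 mice in 1 group, so nothing was tested between conditions; how much of their spread is animal and how much technical cannot be told apart. Per the labels, the build is mm10; aligner and callers are not given in the sources used here. Deposited with each library, the peak signal is 1 value per peak, whose scale is not stated; all values were whole multiples of a step (100% within 0.01), and the median peak held 120 steps in replicate 1 and 122 in replicate 2. The deposited lists of cut-rate positions give p-values adjusted as a false discovery rate, all under 0.05. Depth as a total of reads is unknown.

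The smaller peak list of each library held 60071 and 70563 peaks; the larger lists, of 109563 and 121943, were an alternative. A shared peak is a replicate 1 peak with at least 1 bp of overlap, set against its highest overlapping replicate 2 peak. Start sites, exons and introns came from GENCODE M21, second starts from the RefSeq annotation, and sequences from GRCm38.p6; chromosome names and lengths were compared first. B6CASTF1/J mice also carry a CAST/EiJ genome, which this reference does not represent. Copies were sought with BLAST 2.17.0, other steps used Python 3.11.15, and the scripts were tested on simulated data. Shares have 95% Wilson intervals and medians 95% order-statistic intervals. No set or chance test was made.

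The regions, gene lists and motifs were chosen with earlier results of these data known. Named regions followed a rule: the 10 strongest, the 5 strongest with a CTCF match (of which that near Diaph1 is not displayed, and the next is), the 5 strongest without one and without a near-identical copy, 3 on each side of the threshold, the 3 widest ratios in each direction, up to 2 per gene list, and genes nearest to 3 or more regions. The sequence classes, the leading word, partial copies, RefSeq starts and Peg3 with YY1 were singled out after values were seen. Alternatives changed the overlap, peak list, number kept, distance, start sites, scale, summary, library, motif mismatch, window, copy and footprint limits.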

Additional observations from a re-analysis of the deposited data

How the results depend on the processing

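Of 157 recomputed values, 112 stayed within the interval of the reported value or, for counts, within 1.5 times it, or, for the lowest mean signal, within the SD of that region's 2 signals (0.403). The other 45 moved. Only the median log2 ratio could change sign, and it did not. The other distal peaks were not recomputed when the choice of regions changed, so differences from them were not rechecked there. Overlap of 50%, the larger peak lists and mean ranks moved no value, and kept 983, 999 and 976 of the regions. Keeping 500 regions, all of them among the 1000, gave a lowest mean signal of 3.25, 31.6% in introns, 57.8% between genes, a median distance of 6498.5 bp, 11.6% with a CTCF match, GC of 56.7%, CpG ratio of 0.558, log2 ratio of 0.52, 40% CpG-rich and 16.4% with a RefSeq start within 1 kb. Keeping 2000 gave a lowest signal of 2.14, 40.35% in introns, 18.75% with a CTCF match, GC of 54%, CpG ratio of 0.397, 1% with a near-identical copy, log2 ratio of 0.47 and 21.2% CpG-rich. A distance of 2 kb gave 6.1% in exons, 57.8% between genes, 9415 bp, GC of 54.5%, CpG ratio of 0.424, 99.9% with a footprint in both libraries, 24.7% CpG-rich and 11.1% with a RefSeq start. Protein-coding starts alone, which leave starts of other transcripts in the distal set by construction, gave 31.9% in introns, 15.4% in exons, 14864.5 bp, GC of 56.5%, CpG ratio of 0.565, 2.8% with a copy, log2 ratio of 0.52, 41.4% CpG-rich and 28.3% with a RefSeq start. The lower of the 2 signals gave a log2 ratio of 0.42. Without 1 library, the lowest mean signal was 2.05 to 2.17 and the log2 ratio 0.42 to 0.56. A CTCF match with up to 1 mismatch was held by 39%, a copy over 50% of the region by 3.3%, stricter CpG limits were met by 15.5% and a curated RefSeq start by 2.8%. Except where construction shows it, the cause was not tested. No paired analysis was possible because there is 1 group. RefSeq starts, CpG limits and partial copies were added after seeing the data. With 2 libraries, the signal's scale unstated and columns for the summit unfilled, small differences between neighbouring ranks cannot be resolved.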
